A study of Mus musculus with 14 samples.

Results

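Nod1, Wdr91 and Trh are 3 protein-coding genes of mouse chromosome 6, all read from the minus strand, near which H3K27me3 differed between mouse embryonic stem cells (mESCs) carrying a deletion at the Hoxa cluster of the same chromosome and mESCs carrying other deletions. Every H3K27me3 peak on chromosome 6 (mm10) that lay within 20 kb of the RefSeq gene body of one of them was taken, which gave 14 of the 74458 peaks in the table, 4 at Nod1, 6 at Wdr91 and 4 at Trh, and all 14 passed the filter on low counts. The genes were picked because of their values in the Hoxa deletion, so that those values are given as a description, with no test.

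The study asked whether deleting an anchor of a long-range Polycomb loop alters H3K27me3 elsewhere on the chromosome, and profiled the mark by Cut&Tag, in which an antibody on chromatin guides the transposase Tn5 to cut and tag the DNA beside it. The cells were G4 mESCs, an F1 hybrid line of inbred strains, edited with CRISPR-Cas9 to carry homozygous deletions and kept with leukaemia inhibitory factor (LIF) on CD1 feeder cells. The 3 genotypes compared here were the Hoxa deletion (3 libraries), the Wnt6 deletion on chromosome 1 (2 libraries) and the Hmx1 deletion on chromosome 5 (2 libraries), all with the same H3K27me3 antibody. No column of unedited cells was analysed here, and the IgG control libraries were not used here, so that each level stands without a background value. Each deletion is described in the study as a clone, so that an effect of a deletion and a difference between clones cannot be told apart. In a pool of cells, fewer cells with the mark and less of the mark in each cell cannot be told apart either.

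H3K27me3, a methyl mark on a lysine of histone H3, is written at silent genes by the enzyme complex PRC2. In mESCs the complex gathers at CpG-rich promoters of developmental genes, and the mark spreads from there over neighbouring nucleosomes. The Hox clusters are among the broadest such domains in these cells. Nod1 encodes a cytosolic receptor of innate immunity that senses fragments of bacterial peptidoglycan and signals through the kinase Ripk2 to NF-kappaB. Wdr91 encodes a WD repeat protein that acts with the GTPase Rab7 in the conversion of early to late endosomes. Trh encodes the precursor of thyrotropin-releasing hormone, the hypothalamic peptide at the head of the thyroid axis.

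The libraries held between 6016500 and 36563541 counts over the peaks, with a median of 23 to 148 counts per peak. The targeted loci bore out the labels: over the 46 peaks of chr6:52163046-52274461 the Hoxa-deleted libraries kept 0.0931% to 0.161% of the mean of the other libraries, which themselves lay between 97.7% and 105%, and at the Wnt6 and Hmx1 stretches the deleted libraries kept at most 0.540%. Levels are given as CPM, counts relative to the library total after scaling by TMM factors. The cell type was checked against its own genes, per kb of gene. Nanog, Tdgf1 and Dppa4, which are active in mESCs, had no peak, and Pou5f1, Sox2, Zfp42 and Esrrb had medians of 0.737, 0.638, 0.259 and 1.51 CPM per kb, whereas 8 genes of other lineages ran from 5.35 (Tbx5) to 134.5 (Neurog1). Klf4, which these cells also express, stood at 5.36 CPM per kb.

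The RefSeq body of Nod1 (gene 107607) is chr6:54923942-54972674, that of Wdr91 (gene 101240) chr6:34880426-34910831 and that of Trh (gene 22044) chr6:92242061-92244650. Wdr91 lies 17.3 Mb from the deleted Hoxa stretch on its centromeric side, and Nod1 and Trh lie 2.67 and 40.0 Mb from it on the telomeric side. A peak covered the start site of each gene. The RefSeq promoter windows (GRCm38.p6, 250 bases before to 50 after the start) are shown because these peaks lie on them and because PRC2 is known for CpG-rich DNA, with each CG dinucleotide in capitals. They are written 5′ to 3′ on the minus strand, from chr6:54972563-54972862 (Nod1), chr6:34910782-34911081 (Wdr91) and chr6:92244601-92244900 (Trh).
Nod1: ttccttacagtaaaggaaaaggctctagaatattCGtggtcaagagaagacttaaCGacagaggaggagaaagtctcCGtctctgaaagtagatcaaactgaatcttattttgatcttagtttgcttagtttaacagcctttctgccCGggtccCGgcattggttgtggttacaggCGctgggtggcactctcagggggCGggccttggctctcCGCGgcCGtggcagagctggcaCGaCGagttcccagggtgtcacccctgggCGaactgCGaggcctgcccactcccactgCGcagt
Wdr91: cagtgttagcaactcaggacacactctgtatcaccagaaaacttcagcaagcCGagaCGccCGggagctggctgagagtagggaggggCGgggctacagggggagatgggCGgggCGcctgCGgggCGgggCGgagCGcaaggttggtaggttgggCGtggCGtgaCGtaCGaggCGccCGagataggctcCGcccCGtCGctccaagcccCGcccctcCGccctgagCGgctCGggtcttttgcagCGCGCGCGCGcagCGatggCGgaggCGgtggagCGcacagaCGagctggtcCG
Trh: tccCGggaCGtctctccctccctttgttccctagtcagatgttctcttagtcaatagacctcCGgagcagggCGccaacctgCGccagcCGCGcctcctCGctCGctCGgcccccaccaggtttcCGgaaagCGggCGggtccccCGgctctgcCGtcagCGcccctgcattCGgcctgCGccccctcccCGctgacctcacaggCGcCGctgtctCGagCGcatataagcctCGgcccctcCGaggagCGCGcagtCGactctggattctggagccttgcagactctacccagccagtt
CG, which reads the same on both strands, occurred 34 times in the Wdr91 window (69.7% G or C), 28 times in the Trh window (67%) and 15 times in the printed Nod1 window (54.7%). RefSeq gives Nod1 a second start site, whose window (chr6:54971612-54971911) held 6 CG (47.7% G or C) and had 24 bases in the same peak. Over 32851 RefSeq windows of 27025 genes the median was 7, and 7.73%, 14.2% and 34.6% of them held at least as many as the printed windows of Wdr91, Trh and Nod1, in that order, and 56.4% at least as many as the second Nod1 window. The whole Wdr91 and Trh windows lay inside their peaks, and 156 of the 300 bases of the printed Nod1 window did. Of the 14 peaks, 5 overlapped a promoter window, against 15.2% of all peaks tested. The 14 were taken for lying near gene bodies and the peaks tested were not, so that nothing is read from this difference.

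At Nod1 the mark was lower in the Hoxa deletion at all 4 peaks, and every Hoxa-deleted library lay below every other library at each of them. The leading peak, by which is meant the peak with the smallest p in the Hoxa contrast, was a 2280 bp peak inside the gene at chr6:54942986-54945266, 27.4 kb downstream of the start site. It measured 26.7, 27.6 and 31.6 CPM in the Hoxa deletion, 102.5 and 94.5 CPM in the Wnt6 deletion and 104 and 108 CPM in the Hmx1 deletion. The Hoxa-deleted libraries thus kept 28.0% of the mean of the others, a log2 fold change of -1.83 ± 0.089 (SE), or -1.77 with only the Wnt6 deletion as the comparison and -1.89 with only the Hmx1 deletion. These values rest on 227 to 3615 counts per library.

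The peak over the Nod1 start site, chr6:54971888-54972718, measured 9.29, 10.5 and 12.8 CPM in the Hoxa deletion. It stood at 29.2 and 30.1 CPM in the Wnt6 deletion and at 36.8 and 35.9 CPM in the Hmx1 deletion, for a log2 fold change of -1.58 ± 0.12 (SE). A small peak 2.04 kb upstream of the start, chr6:54974655-54975074, over the noncoding gene Gm24230, had 3.17, 2.83 and 2.51 CPM in the Hoxa deletion against 5.15 to 6.76 CPM in the others (log2 fold change -1.09 ± 0.20). The last Nod1 peak within the 20 kb window, chr6:54992516-54993328, lay over the promoter of Ggct, which encodes the enzyme gamma-glutamylcyclotransferase. There the 3 Hoxa-deleted libraries had 10.2, 7.15 and 10.2 CPM and the others 13.6 to 16.1 CPM, a log2 fold change of -0.74 ± 0.14. The share kept by the Hoxa deletion therefore went from 28.0% at the leading peak through 32.8% and 47.3% to 60.9% at Ggct, 48.8 kb away. The first peak beyond the window, chr6:54889916-54890196 in the ubiquitin ligase gene Znrf2, had a log2 fold change of 0.15, and its groups overlapped.

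**Figure D1:**
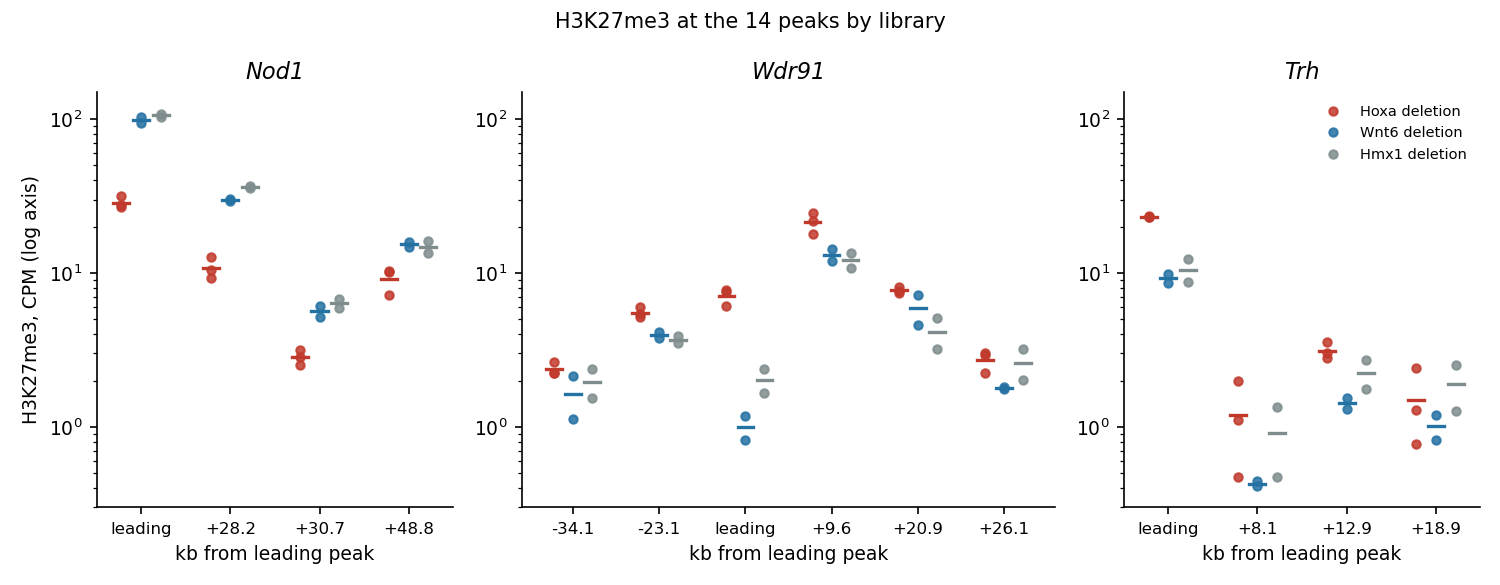
H3K27me3 in CPM (log axis) at each of the 14 peaks, ordered along the chromosome and named by their distance in kb from the leading peak of each gene. Points are libraries and bars are group means (3 Hoxa-deleted, 2 Wnt6-deleted and 2 Hmx1-deleted libraries). The red points lie below the rest at all 4 Nod1 peaks, and above the rest at 4 of 6 Wdr91 peaks and 2 of 4 Trh peaks.

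At Wdr91 the mark was higher in the Hoxa deletion, most of all at a peak inside the gene that was among the weakest in the other deletions. This leading peak, chr6:34900922-34901443 (521 bp), lies 9.39 kb downstream of the start site. It measured 7.76, 7.49 and 6.06 CPM in the Hoxa deletion, 0.823 and 1.18 CPM in the Wnt6 deletion and 2.37 and 1.65 CPM in the Hmx1 deletion. The groups did not overlap, and the Hoxa-deleted libraries averaged 472% of the others, with a log2 fold change of 2.32 ± 0.22 (SE). The estimate was 2.71 against Wnt6 alone and 1.93 against Hmx1 alone, although the Wnt6 and Hmx1 deletions were not called apart at this peak. The counts behind it were small, 66, 196 and 94 in the Hoxa deletion, 8 and 45 in the Wnt6 deletion and 14 and 42 in the Hmx1 deletion.

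The peak over the Wdr91 start site, chr6:34910387-34911102, was the strongest of the 6. It had 24.6, 17.9 and 21.9 CPM in the Hoxa deletion and 14.3, 11.9, 13.5 and 10.7 CPM in the other 4 libraries, so that the groups stood apart at 170% of the others (log2 fold change 0.78 ± 0.13). On the downstream side a peak over the promoter of Cyren, which encodes a cell cycle regulator of DNA end joining, at chr6:34877835-34878245, had 6.00, 5.16 and 5.41 CPM against 3.50 to 4.12 CPM in the others. On the upstream side a peak in Stra8, a gene induced by retinoic acid at the entry into meiosis, at chr6:34921760-34922306, had 8.11, 7.68 and 7.41 CPM. The Wnt6 deletion had 7.20 and 4.63 CPM there and the Hmx1 deletion 5.07 and 3.19 CPM. The outermost pair within the window, in Tmem140 and in Stra8, averaged 132% and 125% of the others with overlapping groups. The first peak beyond the window, chr6:34933990-34934282, also in Stra8, had a log2 fold change of 0.56, and its Hoxa-deleted libraries were all above the rest.

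At Trh the gain lay on the promoter. The leading peak, chr6:92243658-92245063 (1405 bp), spans the start site and holds the whole promoter window shown above. It measured 23.5, 23.0 and 23.3 CPM in the Hoxa deletion, 8.65 and 9.83 CPM in the Wnt6 deletion and 12.3 and 8.70 CPM in the Hmx1 deletion. The Hoxa-deleted libraries were all above the rest, at 235.5% of their mean, with a log2 fold change of 1.27 ± 0.13 (SE), 1.31 against Wnt6 alone and 1.23 against Hmx1 alone. The Hoxa-deleted libraries spread by 0.253 CPM (SD, n = 3) around their mean, and the Hmx1-deleted libraries by 2.57 CPM (SD, n = 2).

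The other Trh peaks lie upstream of the gene and were all under 4 CPM. At chr6:92256953-92257548, 12.3 kb from the gene, the Hoxa deletion had 2.82, 3.55 and 3.03 CPM against 1.31 to 2.70 CPM in the others. The peaks at 7.66 and 18.5 kb had overlapping groups, with means of 178% and 102.5% of the others. The nearer of these held 4 to 31 counts per library. Beyond the window, the first peak came 41.8 kb from the gene, with a log2 fold change of 0.36 and overlapping groups.

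With the thresholds of the study (absolute log2 fold change over 1 and adjusted p under 0.05), 5 of the 14 peaks were called in the Hoxa deletion against the others, 3 lower at Nod1 and 1 higher each at Wdr91 and Trh. Over all peaks outside the deleted stretches 1.53% were called, 0.907% lower and 0.625% higher, and on chromosome 6 2.37% were, 0.763% lower and 1.6% higher. Each of the 5 was called as well when either other deletion served as the only comparison. The groups stood apart at 10 of the 14, where 9.14% of all peaks had every Hoxa-deleted library below and 9.09% above every other library. As the genes were chosen on this contrast, nothing is read from these counts.

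**Figure D2:**
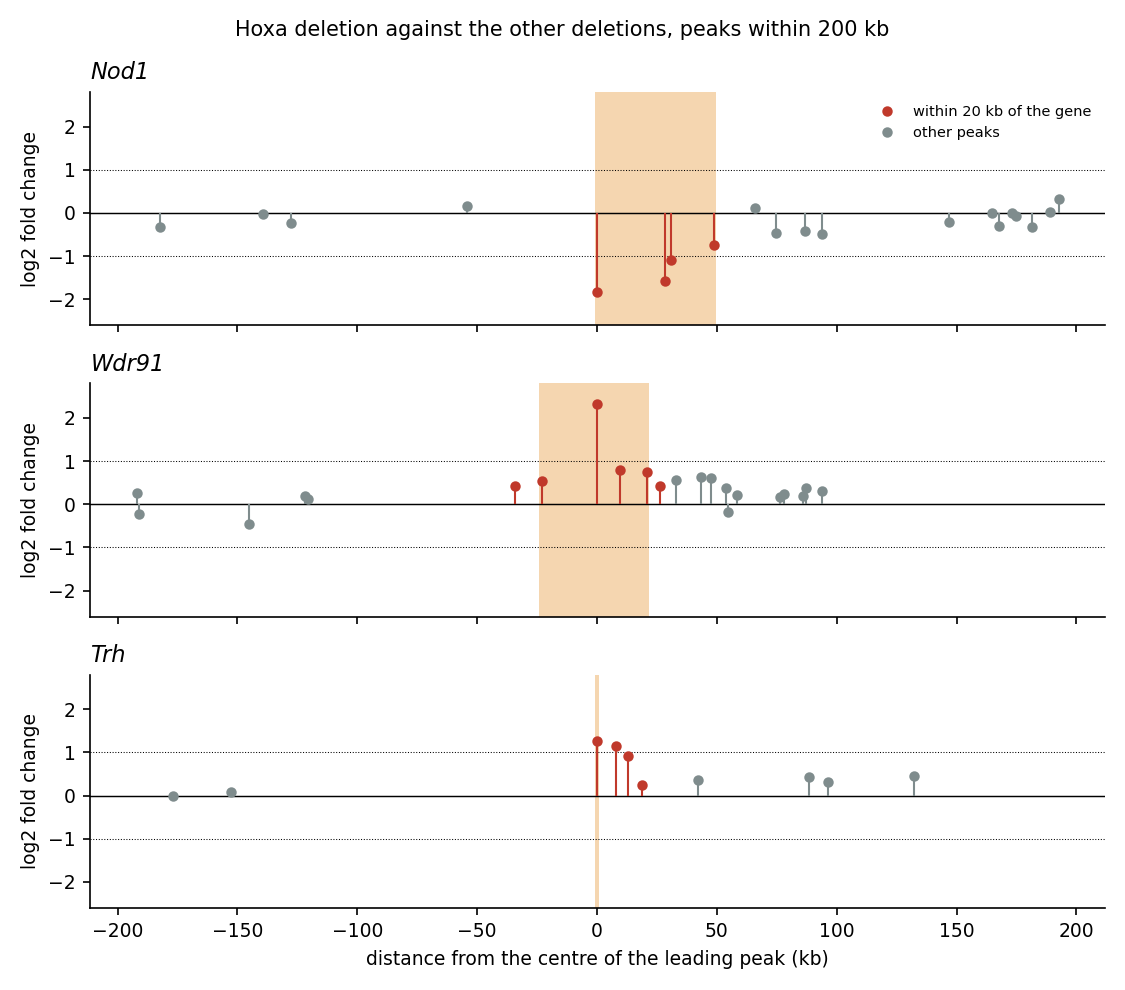
Log2 fold change of the Hoxa deletion against the other deletions at every tested peak within 200 kb of the centre of each leading peak, whose distance is on the horizontal axis in kb. Dotted lines mark a log2 fold change of 1 in either direction, and shading marks the run of consecutive peaks with groups apart. The run holds 4 peaks at Nod1, 4 at Wdr91 and 1 at Trh.

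The difference, counted by separate groups, spanned several neighbouring peaks at Nod1 and Wdr91 and a single peak at Trh. Its extent was taken as the run of consecutive peaks around the leading peak in which every Hoxa-deleted library lay beyond every other library. At Nod1 the run held 4 peaks over 50.3 kb (chr6:54942986-54993328), from the body of Nod1 to Ggct. It ended at a gap of 52.8 kb to the next peak on the side of Znrf2 and of 16.5 kb on the other, where the log2 fold change was 0.12. With 1 peak allowed to fail on each side it held 6 peaks over 177 kb. At Wdr91 the run held 4 peaks over 44.5 kb (chr6:34877835-34922306) and covered parts of Cyren, Wdr91 and Stra8. Without Hmx1 replicate 1 it held 10 peaks over 88.2 kb, and with 1 failing peak allowed on each side 8 peaks over 71.3 kb. At Trh the run was the leading peak alone, 1.41 kb, with the next peak 7.25 kb upstream. That next peak had a log2 fold change of 1.15, but with 4 to 31 counts per library its groups overlapped. On the far side there was no peak for 151 kb, and the first one, chr6:92091111-92092510 in the nuclear receptor gene Nr2c2, had a log2 fold change of 0.09. A run of peaks with a log2 fold change past 0.5 in place of separate groups gave 3 peaks and 13.9 kb at Trh and the same number of peaks as before at Nod1 and Wdr91. Allowing 1 failing peak also gave 3 peaks and 13.9 kb at Trh. The Trh peaks added in this way stood above only 1.03% and 1.84% of all peaks in the other deletions, per kb of peak. Whether they entered the peak list through the Hoxa-deleted libraries was not tested, so that nothing is read from the wider run.

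The median difference was smaller over wider stretches at all 3 genes. Within 100 kb of the Nod1 leading peak, 8 other peaks had a median log2 fold change of -0.47, with 2 called lower (both Nod1 peaks described above), and within 1 Mb 102 peaks had a median of -0.01, with every Hoxa-deleted library below the rest at 10 and above at 9. For Wdr91, 16 peaks within 100 kb had a median of 0.39 and 78 within 1 Mb a median of 0.25, with 1 of these called higher, 15 with the Hoxa-deleted libraries above the rest and 1 with them below. For Trh, 6 peaks within 100 kb had a median of 0.39 and 99 within 1 Mb a median of -0.02, with the Hoxa-deleted libraries below the rest at 11 and above at 5. Of all peaks, 9.14% had them below and 9.09% above. The median of all peaks was 0.0008 and that of chromosome 6 0.03. Of the 114 peaks between the deleted stretch and Nod1, 5 were called lower and 2 higher, and of the 1103 peaks between it and Trh, 10 and 14 were. On the way to Wdr91, 2 of 442 were called lower and 6 higher. Of all chromosome 6 peaks outside the deleted stretch, 0.763% were called lower and 1.6% higher.

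Per kb of peak, the 3 leading peaks came from different parts of the range of levels and lay close together in the Hoxa deletion. As they were picked on the Hoxa contrast, these levels are a description. Whether the Wdr91 leading peak, or the weak peaks upstream of Trh, entered the peak list through the Hoxa-deleted libraries was not tested. In the other deletions the Nod1 leading peak stood at 44.8 CPM per kb, above 93.8% of all peaks, the Trh leading peak at 7.03 CPM per kb, above 43.8%, and the Wdr91 leading peak at 2.89 CPM per kb, above 1.32%. The median peak had 7.75 CPM per kb. In the Hoxa deletion they stood at 12.6, 16.6 and 13.6 CPM per kb, above 71.6%, 79.2% and 74.2% of the peaks. The start site peak of Nod1 fell in rank in the same way, from above 92.6% to above 72.9% of the peaks, and that of Wdr91 went from above 81.0% to above 89.2%.

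Within each locus the share of the leading peak in the summed CPM of all its peaks also differed. At Wdr91 it was 15.2% ± 2.09 (SD, n = 3) in the Hoxa deletion, against 3.71% ± 1.28 for Wnt6 and 7.54% ± 0.335 for Hmx1 (SD, n = 2 each). At Nod1 it was 55.7% ± 1.72 in the Hoxa deletion and 66.0% ± 2.22 and 64.8% ± 1.90 in the Wnt6 and Hmx1 deletions. At Trh the 3 shares were 80.1% ± 3.60, 76.3% ± 0.860 and 68.2% ± 4.32. The Wdr91 and Nod1 shares of the Hoxa-deleted libraries did not overlap with the rest, and at Trh they did. Each leading peak was picked by its p in the Hoxa contrast, which bears on its share in these libraries, so that nothing is read from it.

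**Figure D3:**
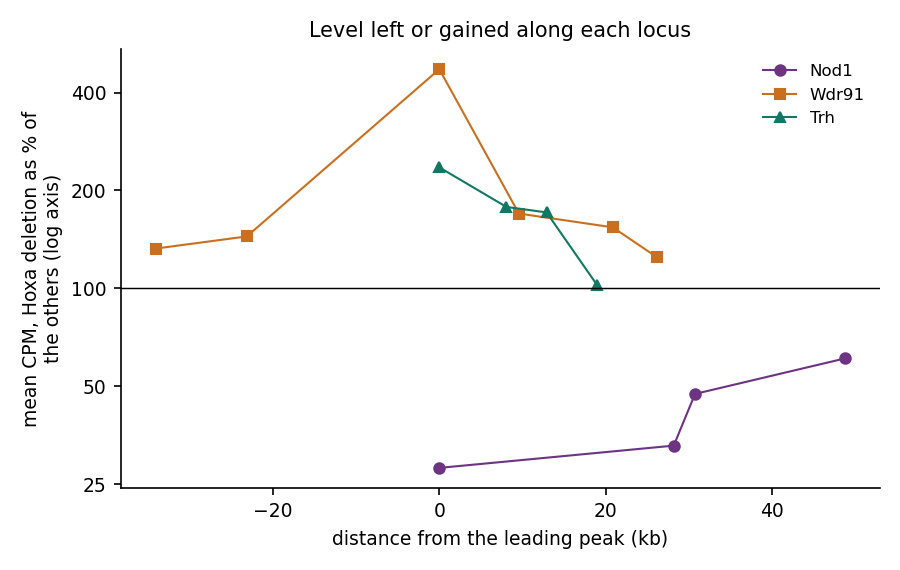
Mean CPM of the 3 Hoxa-deleted libraries as a percentage of the mean of the 4 other libraries (log axis) at each peak, by distance from the leading peak in kb. The line at 100 marks equal means. Nod1 rises from 28.0% to 60.9% over 48.8 kb, Wdr91 peaks at 472% and drops on both sides, and Trh goes from 235.5% to 102.5%.

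The comparison that the choice of genes did not use is that of the Wnt6 with the Hmx1 deletion, both of which keep the Hoxa cluster. By edgeR, none of the 14 peaks was called between them (0 of 14, the lowest adjusted p being 0.862), where 0.0282% of all peaks were, and 0 passed on adjusted p alone, where 0.0713% of all peaks did. Without an adjustment 3 had p under 0.05, against 5.66% of all peaks, and by DESeq2 0 were called and 1 had an unadjusted p under 0.05. However, DESeq2 gave no adjusted p at several of the 14, the Wdr91 leading peak among them, so that it could not have called those. The median log2 fold change over the 14 was -0.11, with 10 lower in the Wnt6 deletion, beside 0.01 over all peaks.

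At the Nod1 leading peak the log2 fold change of Wnt6 against Hmx1 was -0.11 (95% interval -0.32 to 0.10, edgeR adjusted p = 0.953), and at that of Trh it was -0.08 (-0.44 to 0.28, edgeR adjusted p = 0.987). For the Wdr91 leading peak it was -0.78 (-1.49 to -0.063), both Wnt6-deleted libraries lying below both Hmx1-deleted ones, and the edgeR p of 0.0334 became 0.865 after adjustment. The other 2 with an unadjusted p under 0.05 were the Nod1 start site peak, at -0.29 (-0.56 to -0.010, edgeR adjusted p = 0.878), and the Stra8 peak upstream of Wdr91, at 0.57 (0.055 to 1.09, edgeR adjusted p = 0.862).

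**Figure D4:**
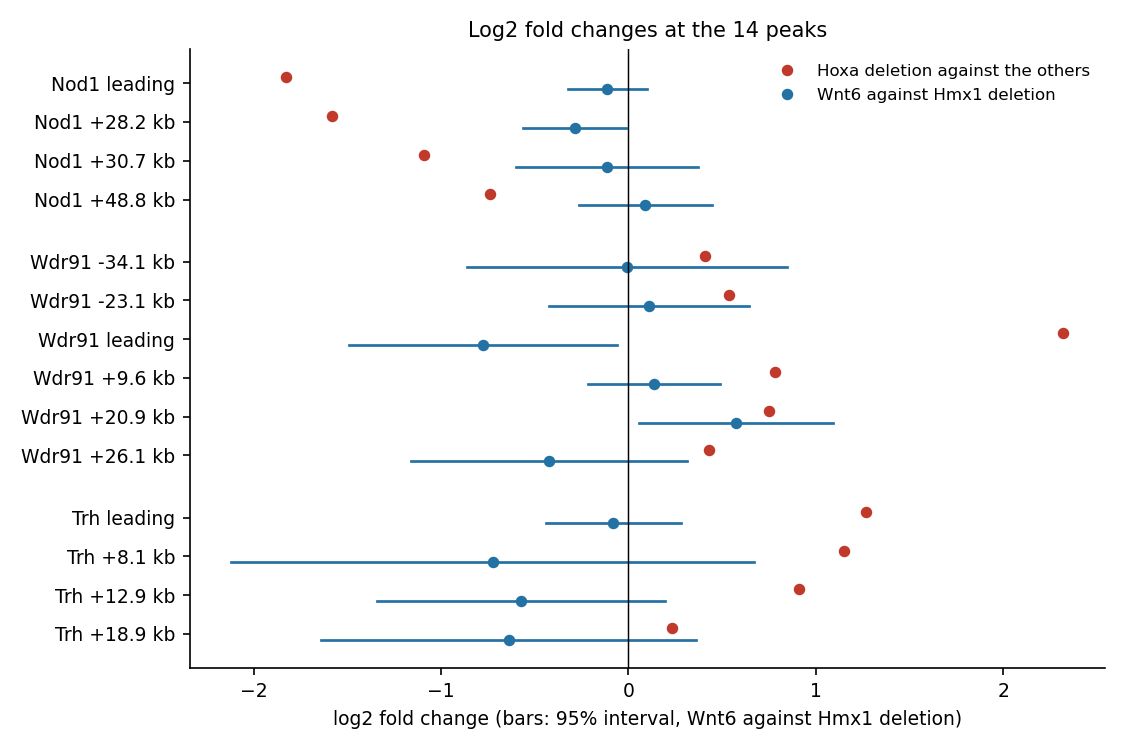
Log2 fold changes at the 14 peaks, named by distance from the leading peak, for the Hoxa deletion against the others (red, drawn without an interval because these values chose the genes) and for the Wnt6 against the Hmx1 deletion (blue, with 95% intervals). Blue points lie between -0.78 and 0.57, and 3 of their intervals leave out 0 before adjustment.

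Summed over the peaks within 20 kb, each gene had 1 level per library. Nod1 had 49.4, 48.1 and 57.1 CPM in the Hoxa deletion, 152 and 147 CPM in the Wnt6 deletion and 163 and 164 CPM in the Hmx1 deletion. Wnt6 against Hmx1 differed there by -0.14 on the log2 scale (95% interval -0.27 to 0.0006, edgeR adjusted p = 0.303 over 17925 genes), so that the order of these 2 was not settled, and both stood above the Hoxa deletion. Wdr91 had 50.9, 43.5 and 46.4 CPM in the Hoxa deletion.

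In the Wnt6 deletion Wdr91 summed to 29.3 and 25.5 CPM, and in the Hmx1 deletion to 30.4 and 22.6 CPM, with a difference of 0.09 (-0.15 to 0.34, edgeR adjusted p = 0.776). Trh had 28.1, 30.1 and 29.1 CPM in the Hoxa deletion, 11.4 and 12.8 CPM in the Wnt6 deletion and 18.9 and 12.2 CPM in the Hmx1 deletion. The Wnt6 and Hmx1 deletions differed at Trh by -0.23 (-0.55 to 0.10, edgeR adjusted p = 0.524). Both of these small differences changed sign when a library was left out, to -0.15 at Wdr91 without Hmx1 replicate 2 and to 0.0015 at Trh without Hmx1 replicate 1. Of all genes, 0.0614% were called between the Wnt6 and the Hmx1 deletion, and none of the 3 was among them.

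The partners of the 3 genes were then compared between the Hoxa deletion and the others on the same gene sums, with the 3 genes themselves left out. No gene of the lists had a log2 fold change over 1 in either direction, and 12.9% of all 17925 genes were lower and 14.9% higher at an edgeR adjusted p under 0.05. Of 21 NOD1 signalling genes with peaks, 5 were lower and 3 higher, with a median log2 fold change of 0.05 beside 0.0049 over all genes. The lower ones were Nod2, the sister receptor of Nod1 (-0.64 ± 0.048 SE), Nlrc5, the transactivator of MHC class I genes (-0.65), the kinase gene Ikbkb (-0.33), Ripk2 (-0.21) and Tab1 (-0.34). Rela, the NF-kappaB subunit, was higher at 47.2 CPM against 26.4 CPM in the others (log2 fold change 0.79 ± 0.082), as were the peptide transporter gene Slc15a3 (0.37) and Erbin (0.38).

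Of 16 genes of early to late endosome conversion with peaks, 3 were lower and 4 higher (median 0.06). Mon1b, a subunit of the exchange factor for Rab7, was lower by -0.73 ± 0.066 and its paralogue Mon1a higher by 0.25. Wdr81, the partner of Wdr91, was higher by 0.25 with 101 CPM against 81.5 CPM, and so were the phosphatidylinositol kinase complex genes Becn1 (0.39) and Pik3c3 (0.25), whereas Pik3r4 of the same complex was lower (-0.66), as was Eea1, the tether of early endosomes (-0.28). Of 17 genes of the TRH axis with peaks, 6 were lower and 1 higher (median -0.13). The receptor gene Trhr2 (-0.70 ± 0.042), the peptidase genes Pgpep1 (-0.29) and Trhde (-0.14), the prohormone processing genes Cpe (-0.34) and Pcsk2 (-0.17) and the thyrotropin receptor gene Tshr (-0.21) were lower. Thra, which encodes a thyroid hormone receptor, was higher at 59.8 CPM against 31.5 CPM (0.87 ± 0.072).

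Nod2, Nlrc5, Ikbkb, Mon1b, Trhr2, Pgpep1 and Cpe lie on chromosome 8, whose 5579 peaks had a median log2 fold change of -0.58, and the part of that shift in their values was not tested. Without genes of chromosome 8, 2 NOD1 signalling genes, 2 endosome genes and 3 genes of the TRH axis were lower. On chromosome 8 lay 3 of the 21 NOD1 signalling genes with peaks, 1 of the 16 endosome genes and 3 of the 17 TRH axis genes. The share of all genes outside chromosome 8 that were lower is not given here, so that nothing is read from these counts. The NOD1 list had 3 lower genes without Hoxa replicate 1 or 2 or Hmx1 replicate 1, and 5 higher without Hoxa replicate 3. The endosome list had 1 lower gene without Hoxa replicate 2, Wnt6 replicate 1 or Hmx1 replicate 1, and 2 higher without Wnt6 replicate 2. With libraries scaled by their totals alone, 3 NOD1 genes were lower and 5 higher, and 1 endosome gene was lower.

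Likeness to each leading peak was measured as the root mean square difference in log2 CPM, centred over the 7 libraries, among the peaks with a mean of at least 5 CPM that lay at least 1 Mb away. The third most like that of Nod1, of 30063 compared, lay over H19 and Mir675 (chr7:142576517-142577227, difference 0.188), with 5.43 CPM in the Hoxa deletion and 16.9 CPM in the others. For Trh the closest of 30061 were in Nr5a2 (chr1:136948567-136949819, 0.082), with 31.4 and 14.4 CPM, in Axin2 (chr11:108941695-108943145, 0.117) and in Gucy1a2 (chr9:3532164-3533366, 0.127). The Wdr91 leading peak had no such close match among the peaks compared. Its own mean lay under the 5 CPM asked of those peaks, with 8 to 196 counts per library. Its libraries also spread more within deletions than those of the Nod1 and Trh leading peaks. The part of low counts in its larger differences was not tested. The nearest to the Wdr91 leading peak among 30077 were a pair in Tnrc18 (chr5:142823163-142823957, 0.401, and chr5:142820328-142822069, 0.476) and one in Nfib (chr4:82504156-82505075, 0.516). None of these peaks lies on chromosome 6, and the 7 libraries are shared by all of the peaks compared.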

How the data were processed

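The authors deposited raw counts per peak, for peaks common to all libraries, in a table with 7 H3K27me3 columns, which were matched to samples by title. The submitters' processing notes name Trimmomatic, Bowtie2, SAMtools, Picard, MACS2, deepTools and mm10. How the peak list was made, whether duplicates were removed and how peak starts are counted are not given in the sources used here. Peaks called on some libraries favour those that are strong there. Gene bodies and promoters are RefSeq (GRCm38.p6). The table has no exons, so exonic or intronic positions are not given.

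The members, gene lists and tests were chosen with earlier results of these data known. The peaks within 20 kb of a gene body were taken. The deleted stretches, in which a deletion fell under 10% of the other libraries over consecutive peaks, were left out of background counts. With edgeR 4.0.16 (limma 3.58.1, R 4.3.3) filterByExpr removed 17 peaks and left 74441, libraries were scaled by TMM factors, and glmQLFit and glmQLFTest were run with 1 term per deletion over 7 libraries. Adjusted p-values are Benjamini-Hochberg over all peaks or all genes, calls need an absolute log2 fold change over 1 and adjusted p under 0.05, and the prior count for log2 CPM was 2. Standard errors come from the F statistic. Gene sums of neighbours share peaks. Separate cultures are not stated for the replicates, so p-values measure the spread between these samples only, which may be technical. DESeq2 1.42.0, other scalings, windows and filters, single deletions as the comparison, a replicate block and libraries left out in turn were the alternatives. Plots used Python 3.11.15 and matplotlib 3.10.9.

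Named peaks were each leading peak, the member peaks called in the Hoxa contrast, the first peaks beyond the run, the genes under the run, the 3 peaks most alike for Wdr91 and Trh and the list genes that passed. For Nod1 only the third most alike peak is given, and the other two are not reported here. Other member peaks and the list genes passing on adjusted p alone, without the fold, were named after their values were seen. On counts simulated for Wnt6 against Hmx1 over 74458 peaks, edgeR found at adjusted p under 0.05 50% of 100 peaks changed by 1 and 98% of 100 changed by 2 on the log2 scale, with 3 calls among 74258 unchanged peaks. DESeq2 found 33% and 88%, with 0 such calls. Calls among unchanged peaks also needed an absolute log2 fold change over 1, unlike the shares found. The changed peaks were drawn from those without low expected counts, and the simulated spread between libraries was a fixed value not estimated from these data. The shares found therefore do not apply to the low peaks at Wdr91 and Trh.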

Additional observations from a re-analysis of the deposited data

How the results depend on the processing

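Of 191 values under alternatives, 168 kept their direction and their side of the threshold or moved by less than the limits set, 20 moved and 3 changed sign. Of the 168, 37 were fold changes of the leading peaks in the Hoxa contrast and 26 were extents of the runs around them. The genes were chosen on that contrast, so that nothing is read from how these values held. The 14 peaks gave 0 calls between the Wnt6 and Hmx1 deletions under every alternative run, although a mean count of at least 20 left 13 of them. DESeq2 gave several of them no adjusted p and could not have called those. That difference at the gene Wdr91 turned to -0.075 with a window of 50 kb. With each library left out, it ran from -0.15 to -0.11 at Nod1, from -0.15 to 0.24 at Wdr91 and from -0.59 to 0.0015 at Trh. The fold change of the Wdr91 leading peak moved to 2.71 against Wnt6 alone and 1.93 against Hmx1 alone, and with each library left out the leading peaks ran from -1.91 to -1.79 (Nod1), 2.14 to 2.51 (Wdr91) and 1.11 to 1.36 (Trh), all on the log2 scale. Runs with 1 failing peak allowed on each side held 6 peaks at Nod1, 8 at Wdr91 and 3 at Trh, runs past a log2 fold change of 0.5 held 3 at Trh, and with each library left out they held 4 at Nod1, 4 to 10 at Wdr91 and 1 at Trh. In the lists, scaling by library totals gave 3 lower and 5 higher NOD1 genes and 1 lower endosome gene. Leaving out chromosome 8 gave 2 lower NOD1 genes and 3 lower TRH axis genes, with no share over all genes outside it given. With each library left out, NOD1 genes ran from 3 to 5 lower and 3 to 5 higher, endosome genes from 1 to 3 lower and 2 to 4 higher, and TRH axis genes from 4 to 7 lower and 1 higher. The causes were not tested. The list alternatives were chosen after the data were seen.

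Same-numbered libraries were not seen to deviate together (correlations from -0.04 to 0.08). Where a deletion has 2 libraries, their deviations mirror each other, so that these correlations cannot settle whether the numbers pair the samples. In each deletion replicate 1 had the fewest counts and replicate 2 the most. With the replicate number as a block, Wnt6 against Hmx1 was -0.13 at Nod1, 0.10 at Wdr91 and -0.21 at Trh with 0 of the 14 peaks called, the leading peaks were at -1.90, 2.42 and 1.26, and 5 NOD1 genes were higher.

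Counts were low at the Wdr91 leading peak (8 to 196 per library) and at the small Trh peaks (from 4). With 2 libraries in each of these deletions, intervals at small peaks reach past a log2 difference of 1, and misses there do not show equal levels.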
